A study of Mus musculus with 10 samples.

Results

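The gap-junction genes Gja1, Gjb6 and Gjb2 and 7 further genes known from astrocytes (Aqp4, Gfap, Slc4a4, Sox9, Ntsr2, Mlc1 and Acsbg1) were examined in the hippocampus of mice that differed in exploration. All probe sets whose platform annotation gave exactly 1 symbol, equal to one of these names, were taken, without regard to their signal. This gave 25 probe sets for the 10 genes, out of 45037 probe sets tested and 18193 genes with a probe set of their own. Gja1 had 6 probe sets, Slc4a4 had 5, Aqp4, Gfap and Sox9 had 3 each, and the other 5 genes had 1 each. On mean log2 signal, 17 of the 25 probe sets lay above the median of all probe sets, whose signal was 172, and 8 lay below it.

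The mice were inbred Balb c/J females from 1 supplier, born on the same day, and they carried no transgene and received no treatment that the labels name. Animals were ranked by a composite of repeated open field measures, and 5 from each end (titled High Exploration and Low Exploration) were profiled, with 1 array of whole hippocampus per animal. The groups are therefore the ends of a behavioural ranking within 1 strain, and their age is not given in the labels of these arrays. The p-values set a group difference against the spread between these 10 animals, in which animal and array cannot be told apart. For limma that spread is also drawn toward the spread of all probe sets. Each value is a MAS 5.0 signal, the brightness of a probe set on a linear scale after the authors' background correction and array scaling. Differences below are High minus Low Exploration in mean log2 signal, where a value of 1 is a doubling, and the signals of different probe sets do not compare the amounts of different transcripts.

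Astrocytes are joined into networks by gap junctions, channels made of connexin proteins that let ions and small metabolites pass from cell to cell. Their endfeet wrap blood vessels and carry water channels and ion transporters, and their intermediate filaments and lineage factors serve as common markers of the cell type. In the hippocampus these cells clear potassium and glutamate around synapses and supply neurons with metabolites.

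Gja1 encodes connexin 43 and Gjb6 encodes connexin 30, the main astrocytic connexins, and Gjb2 encodes connexin 26, which is also known from meningeal cells. The 250 bases before the start of each of these 3 genes are shown as a description. They are RefSeq sequences of build GRCm38.p6, from the reference strain C57BL/6J and not from Balb c/J, written 5′ to 3′ on the strand of the gene. Gja1 is at chr10:56377050-56377299 on the plus strand, Gjb6 at chr14:57133612-57133861 on the minus strand and Gjb2, its neighbour, at chr14:57104703-57104952 on the minus strand. Capitals mark matches to any of 4 motifs searched on both strands, the TATA box spelled as TATAAA, the GC box spelled as GGGCGG, the AP-1 element spelled as TGAGTCA and the CCAAT box spelled as its name, and no match overlapped another.
Gja1: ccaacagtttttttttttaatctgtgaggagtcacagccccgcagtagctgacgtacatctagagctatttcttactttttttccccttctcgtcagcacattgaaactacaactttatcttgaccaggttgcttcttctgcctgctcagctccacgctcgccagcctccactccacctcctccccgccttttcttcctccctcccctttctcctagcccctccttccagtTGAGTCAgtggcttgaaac
Gjb6: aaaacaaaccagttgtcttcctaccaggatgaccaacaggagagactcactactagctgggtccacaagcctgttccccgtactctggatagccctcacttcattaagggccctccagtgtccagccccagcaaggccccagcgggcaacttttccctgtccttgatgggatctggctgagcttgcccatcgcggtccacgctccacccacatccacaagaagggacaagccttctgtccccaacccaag
Gjb2: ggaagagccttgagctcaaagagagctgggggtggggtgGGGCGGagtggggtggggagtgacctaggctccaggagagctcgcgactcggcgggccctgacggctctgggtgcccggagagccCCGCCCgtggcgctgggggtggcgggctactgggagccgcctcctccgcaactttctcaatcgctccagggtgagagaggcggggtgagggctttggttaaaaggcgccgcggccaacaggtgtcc
The Gja1 stretch held TGAGTCA, beginning 19 bases before the start, a motif found in 4.46% of 32851 mouse promoters of the same length. The Gjb2 stretch held GGGCGG beginning 211 bases before the start, and again 126 bases before it on the opposite strand, a motif found in 32.7% of promoters. The letters of these 4 motifs were not found in the Gjb6 stretch, while TATAAA occurred in 12.4% and CCAAT in 33.8% of promoters. A match of letters is a description of the sequence and was not tested as a site.

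Facts of the whole set of arrays bear on every value. As deposited, the median difference over all 45037 probe sets was −0.47, and 31.0% of them were higher in High Exploration mice. Only the highest decile of mean signal had a positive median, 0.43, while the medians of the other deciles lay between −0.65 and −0.17. Under other scalings the median of all probe sets was 0.066 (each array centred on its median), −0.022 (quantile normalisation) and 0.14 (hybridisation controls set equal), so differences are also given relative to the median of all probe sets. The spiked-in hybridisation controls had a mean log2 signal of 13.2 to 14.0 in High and 13.9 to 14.7 in Low Exploration arrays (difference −0.61, exact permutation p = 0.0159, 2-sided). The poly-A controls, added to the RNA before labelling, lay at 11.8 to 13.1 in High and 13.6 to 14.7 in Low Exploration arrays, with no overlap (difference −1.62, exact permutation p = 0.00794). The log2 ratio of 3′ to 5′ Gapdh signal, a sign of RNA quality and of labelling, was 3.96 to 5.21 in High and 3.49 to 4.06 in Low Exploration arrays (exact permutation p = 0.0159). Their part in the results below was not tested, except that the fits with either control level as a covariate are given. Because the poly-A levels of the groups did not overlap, the fit with that covariate cannot separate group from control level.

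None of the 25 probe sets passed limma's test (Benjamini-Hochberg adjusted p under 0.05 over all probe sets), and the smallest adjusted p was 0.120, for Acsbg1. Over all probe sets the same test called 0.0711%, with 3 higher and 29 lower. At an unadjusted limma p under 0.05 there were 7 of 25, with 3 higher and 4 lower, where 21.3% of all probe sets met that mark in either direction. In 2 of the 25, both of Gja1, every High Exploration array exceeded every Low Exploration array, a pattern met by 1.17% of all probe sets. The opposite pattern was met by 0 of 25 and by 4.84% of all probe sets. The median difference of the 25 was −0.11, with 11 higher and 14 lower. Relative to the median of all probe sets 16 lay above and 9 below. In whole tissue, fewer cells of a type and less RNA per cell cannot be told apart.

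In the brightest probe set of Gja1, 1437992_x_at, the groups did not overlap. The signals were 43357, 40866, 30488, 35509 and 30801 in High Exploration replicates 1 to 5, and 18627, 18246, 8698, 24167 and 10713 in Low Exploration replicates 1 to 5. The High Exploration arrays all lay above the highest Low Exploration array, replicate 4, and Low Exploration replicates 3 and 5 were the lowest. The mean log2 signal was 15.13 ± 0.23 in High and 13.88 ± 0.61 in Low Exploration mice (SD, n = 5 each), a difference of 1.25 (SE 0.41, 2.39-fold), which did not pass limma's test (adjusted p = 0.150). Relative to the median of all probe sets the difference was 1.72, but the median of its own decile of mean signal was 0.43. Under quantile normalisation the difference was 0.76 (limma adjusted p = 0.390). The difference itself kept its sign under all 19 other settings, from 0.16 with the poly-A control level as a covariate to 1.86 with hybridisation controls set equal.

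The second probe set of Gja1, 1438945_x_at, gave the same separation of the groups. Its signals were 16743, 18044, 9620, 8671 and 9485 in High Exploration and 6787, 5629, 3054, 8143 and 2992 in Low Exploration replicates. The lowest High Exploration array, replicate 4, exceeded the highest Low Exploration array, also replicate 4, by a small margin. The difference was 1.28 (SE 0.45, limma adjusted p = 0.160), and it turned to −0.36 with the poly-A control level as a covariate. An _x_at probe set holds probes that can match other transcripts, so these sets of 1 gene may share targets and are not replicates of each other.

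The other probe sets of Gja1 overlapped between the groups. The difference was 1.00 for 1438650_x_at, where High Exploration replicate 2 reached 14742 and the other 9 arrays lay between 2004 and 6869 (limma adjusted p = 0.238). It was 1.05 for 1415800_at, with signals of 965 to 3081 in High and 434 to 1405 in Low Exploration mice (limma adjusted p = 0.235). It was 0.36 for 1438973_x_at, where without High Exploration replicate 2, at 6430, it was 0.048. The dimmest, 1415801_at, ran the other way, with 139 to 380 in High and 312 to 484 in Low Exploration mice and a difference of −0.73 (limma adjusted p = 0.313). The log2 ratio of this probe set to the brightest of Gja1 was −7.25 ± 0.68 in High and −5.27 ± 0.65 in Low Exploration arrays (SD, n = 5 each), and the groups did not overlap (difference −1.98, exact permutation p = 0.00794, the smallest that these arrays allow, adjusted p = 0.119 over 15 such ratios).

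**Figure D1:**
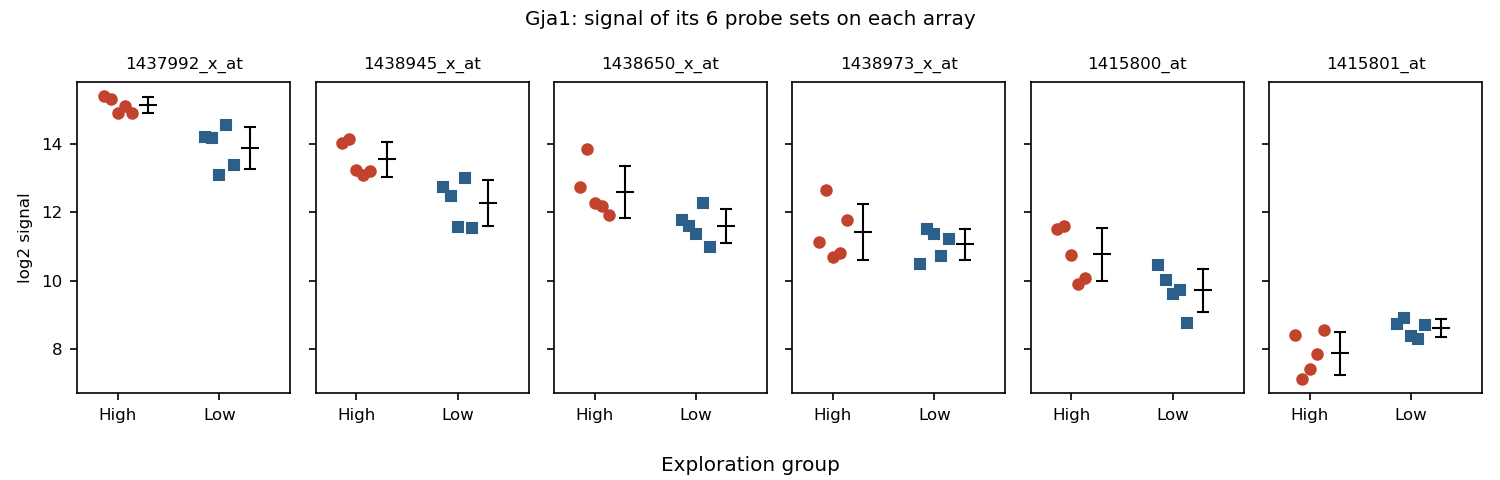
Signal of the 6 Gja1 probe sets (log2 signal, vertical axis) on each array of the High (circles) and Low Exploration (squares) groups, in replicate order, with the mean and SD (n = 5) as a bar to the right of each group. The groups are apart in the 2 brightest probe sets, with differences of 1.25 and 1.28, and the dimmest runs the other way at −0.73.

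Gjb6 followed the bright probe sets of Gja1 in direction. Its single probe set, 1448397_at, had signals of 1002, 875, 679, 673 and 483 in High Exploration and 507, 277, 251.6, 568 and 397 in Low Exploration replicates. In 4 of 5 High Exploration arrays the signal exceeded the highest Low Exploration array, and replicate 5 lay within the Low Exploration range. The mean log2 signal was 9.49 ± 0.40 against 8.57 ± 0.52 (SD, n = 5 each), a difference of 0.92 (SE 0.41, 1.89-fold) that did not pass limma's test (adjusted p = 0.220). The median of probe sets in its decile of mean signal was −0.47, and relative to the median of all probe sets the difference was 1.39. As deposited or otherwise processed it kept its sign under all 19 other settings, between 0.17 with the poly-A control level as a covariate and 1.53 with hybridisation controls set equal.

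Gjb2 did not separate the groups. Its signals were 557, 298, 605, 531 and 339 in High Exploration and 462, 873, 1157, 195 and 298 in Low Exploration replicates, so that the Low Exploration group held both the highest arrays, replicates 2 and 3, and the lowest, replicate 4. The difference was −0.12 with a 95% interval of −1.26 to 1.03 (limma adjusted p = 0.913), which leaves room for a doubling in either direction. It turned to 0.42 under median centring and to 0.20 without Low Exploration replicate 3, and relative to the median of all probe sets it was 0.35 as deposited.

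Aqp4 encodes the water channel of astrocyte endfeet, and its probe sets did not run together. The brightest, 1434449_at, had signals of 17071, 5321, 2410, 18171 and 9869 in High Exploration and 3051, 5525, 5164, 5746 and 5801 in Low Exploration replicates. High Exploration replicates 1, 4 and 5 lay above all Low Exploration arrays, while High Exploration replicate 3 was the lowest of all 10. The difference was 0.75 (SE 0.57, limma adjusted p = 0.445), with log2 SDs of 1.23 in High and 0.39 in Low Exploration mice. The second probe set, 1447745_at, ran from 154 to 1283 in High and from 145 to 852 in Low Exploration mice and differed by −0.030. The dim probe set 1425382_a_at had 59.9, 8.61, 140, 11.9 and 23.6 in High and 84.0, 180, 247, 138 and 148 in Low Exploration replicates. All but High Exploration replicate 3 lay below the Low Exploration range, and the difference was −2.37 (SE 0.71, limma adjusted p = 0.140), or −1.57 once 23.0 (the signal at the 10th percentile) was added to every value. Its log2 ratio to the brightest Aqp4 probe set differed by −3.13 between the groups (exact permutation p = 0.0476, adjusted p = 0.214).

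Mlc1, a membrane protein of astrocyte endfeet that is known for a leukodystrophy with cysts, was near the floor of the array. Its single probe set had signals of 9.99 to 38.4 in High and 11.8 to 31.0 in Low Exploration mice, at percentile 1.95 of all probe sets, and whether it detected a transcript was not tested. The difference was −0.33 (SE 0.48, limma adjusted p = 0.708). It turned positive under every other scaling.

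Slc4a4 encodes a sodium bicarbonate cotransporter that buffers pH around astrocytes. Its brightest probe set, 1452071_at, had 1809, 556, 867, 1690 and 1216 in High and 1279, 1667, 2056, 2088 and 1213 in Low Exploration replicates, with overlapping groups and a difference of −0.53 (SE 0.44, limma adjusted p = 0.487). The second, 1426432_a_at, had 626, 546, 684, 925 and 1199 in High and 1034, 3168, 5114, 1529 and 2548 in Low Exploration replicates. High Exploration replicate 5 was the only array to reach the Low Exploration range, and the difference was −1.59 (SE 0.49, 3.02-fold in favour of Low Exploration, limma adjusted p = 0.144). The third, 1434096_at, differed by 0.47 in the other direction, with 506 to 1303 in High and 455 to 843 in Low Exploration mice. The dim pair, 1450169_at and 1421225_a_at, differed by −0.70 and −0.42 with signals between 8.38 and 281. The difference of 1426432_a_at kept its sign under all 19 other settings, whereas the brightest turned to 0.010 under median centring.

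Acsbg1, an acyl-CoA synthetase that activates long-chain fatty acids, had the most negative difference of all 25 probe sets. Its signals were 19.1, 26.5, 15.0, 108 and 35.3 in High Exploration and 121, 301, 220, 61.9 and 327 in Low Exploration replicates. High Exploration replicate 4 was the highest of its group and Low Exploration replicate 4 the lowest of its own, and the groups overlapped only between these 2 arrays. The mean log2 signal was 4.96 ± 1.11 against 7.45 ± 1.01 (SD, n = 5 each), a difference of −2.49 (SE 0.63, limma adjusted p = 0.120). Of the High Exploration signals 4 of 5 lay between 15.0 and 35.3, near 23.0, the signal at the 10th percentile, where detection was not tested, and with that signal added to every value the difference was −1.82. The probe set lay at percentile 25.2 of mean signal, in a decile whose median difference was −0.64. Relative to the median of all probe sets the difference was −2.02. The sign held under the 18 settings that kept the probe set, with differences between −2.94 and −1.02.

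Gfap, the intermediate filament of astrocytes, also gave probe sets of opposite sign. The brightest, 1440142_s_at, had 5673, 4058, 4585, 2756 and 3528 in High and 2019, 3774, 3065, 2793 and 4452 in Low Exploration replicates, with wide overlap and a difference of 0.36 (95% interval −0.49 to 1.22, limma adjusted p = 0.600). The second, 1426508_at, had 232, 261, 324, 248 and 356 in High and 435, 326, 557, 638 and 1134 in Low Exploration replicates. Low Exploration replicate 2 alone reached the High Exploration range, and the difference was −1.01 (SE 0.42, limma adjusted p = 0.202). The ratio of the second to the brightest differed by −1.37 (exact permutation p = 0.0238, adjusted p = 0.179). The third, 1426509_s_at, differed by 0.41 with signals between 20.6 and 317, and by −0.096 without Low Exploration replicate 1.

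Sox9, a transcription factor of the astrocyte lineage, varied widely within the Low Exploration group. Its brightest probe set, 1451538_at, had 455, 206, 217, 415 and 493 in High and 48.6, 735, 1683, 675 and 152 in Low Exploration replicates, so that the Low Exploration group lay on both sides of the other. The difference was −0.11 with a 95% interval of −1.91 to 1.68 (limma adjusted p = 0.948). The other sets, 1424950_at and 1433889_at, differed by −0.99 and 0.24 (limma adjusted p = 0.343 and 0.883).

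Ntsr2, a neurotensin receptor of astrocytes, had signals of 283, 357, 443, 23.5 and 346 in High and 335, 259, 373, 216 and 527 in Low Exploration replicates. High Exploration replicate 4 stood far below the other 9 arrays. The difference was −0.67 (SE 0.73, limma adjusted p = 0.606) and without that array it was 0.11.

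**Figure D2:**
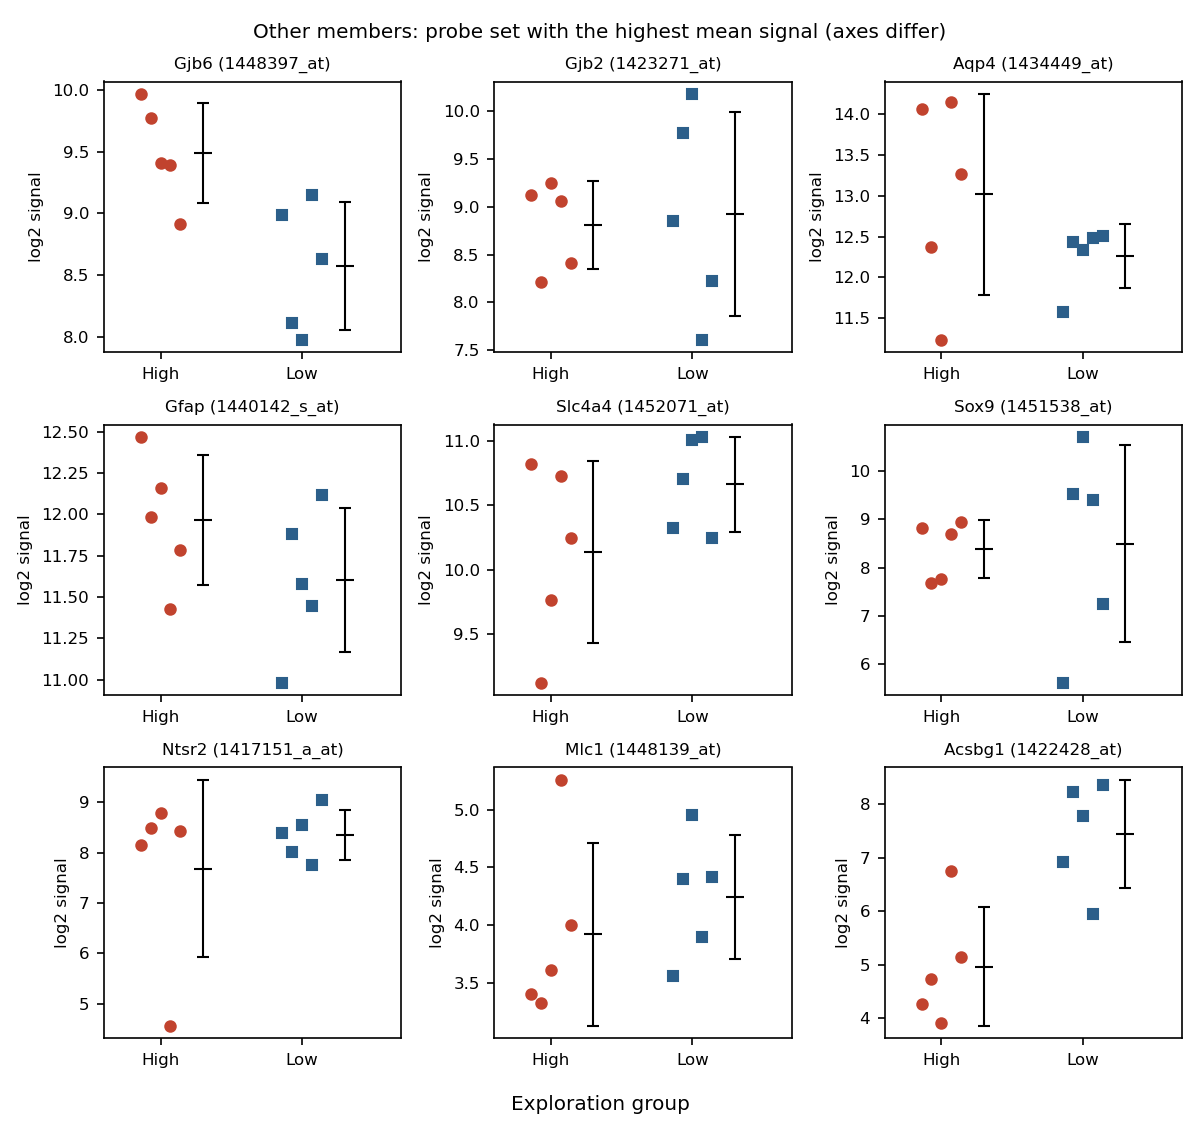
Signal of the brightest probe set of the 9 other genes (log2 signal, vertical axes that differ in range) on each array of the High (circles) and Low Exploration (squares) groups, with mean and SD (n = 5). Gjb6 lies higher in High Exploration by 0.92 and Acsbg1 differs by −2.49 on the log2 scale, both with overlap, and Sox9 and Gjb2 spread widely within Low Exploration.

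Ratios of 2 genes within an array do not depend on a constant scaling of that array. Over the 45 pairs of the 10 genes, each by its brightest probe set, none differed between the groups after Benjamini-Hochberg adjustment (smallest adjusted p = 0.0893), and 11 had an exact permutation p under 0.05, where 15.7% of all pairs of genes did. The groups did not overlap in 4 of the 45, against 4% of all pairs of genes, and whether the shares differ was not tested. The log2 ratio of Gja1 to Slc4a4 was 4.99 ± 0.73 in High and 3.21 ± 0.68 in Low Exploration arrays (SD, n = 5 each), a difference of 1.78 (exact permutation p = 0.00794). The ratio of Gjb6 to Slc4a4 differed by 1.45 (exact permutation p = 0.00794). The ratio of Aqp4 to Acsbg1 differed by 3.24 with the same p, and rests on the dim Acsbg1 signals of High Exploration arrays. The fourth pair, Mlc1 to Acsbg1, is given without a value, since whether Mlc1 was detected was not tested. All 45 ratios share the same 10 arrays. The ratio of Gja1 to Gjb6 differed by 0.33 (exact permutation p = 0.190).

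**Figure D3:**
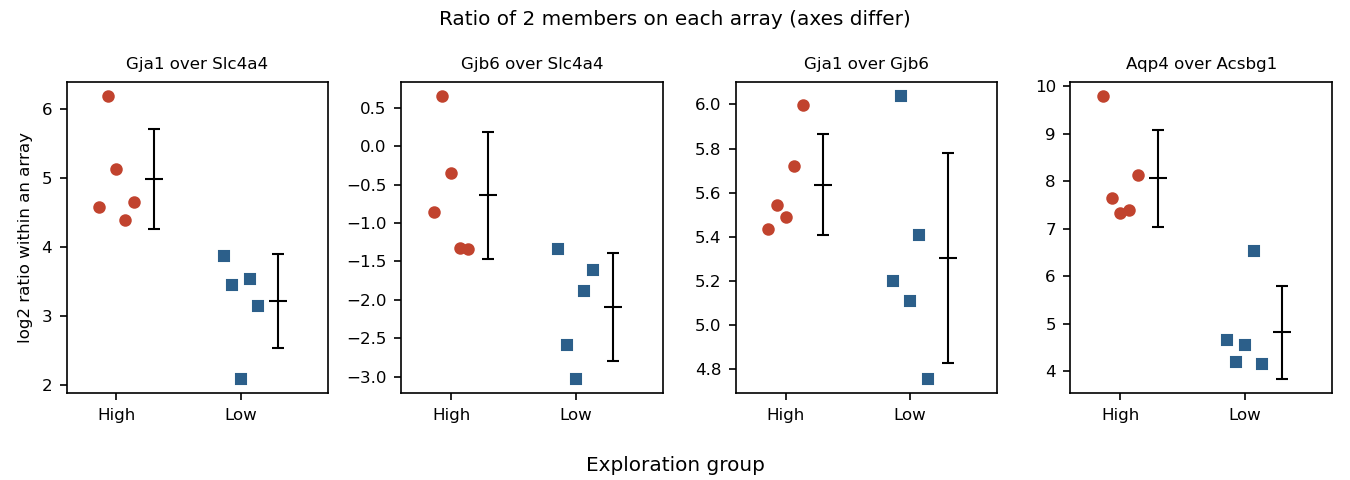
Log2 ratio of 2 genes within an array (vertical axes that differ in range), by the brightest probe set of each, for High (circles) and Low Exploration (squares) with mean and SD (n = 5). Gja1 and Gjb6 over Slc4a4, and Aqp4 over Acsbg1, show no overlap between the groups, and Gja1 over Gjb6 overlaps.

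The signals of Gjb6 and of the brightest Gja1 probe set were compared from array to array once group means were removed. Over the 10 arrays Pearson's r was 0.679 (permutation p = 0.0314, adjusted p = 0.282 over 9 relations) and Spearman's rho was 0.661 (permutation p = 0.0436). The permutations ran over all arrays and not within groups, although group means had been removed, so the p-values of these correlations are approximate. Without the 2 arrays farthest from the median of Gja1, r was 0.375 (n = 8, permutation p = 0.352). Leaving out arrays that are extreme in Gja1 narrows its range, so this cannot decide whether the relation rested on those arrays. Over all 10 arrays this r was the highest among the 9 other genes, but without those 2 it was not, since Gjb2 turned from −0.452 to 0.453. Within Gja1, the second brightest probe set gave r = 0.909 with the brightest, the others 0.642, 0.535, −0.00052 and −0.15, as a description over 10 arrays that share their scaling. Over the same 10 arrays and 11499 genes with a mean above the median, the patterns nearest to Gja1 were those of Ccng1 (r = 0.986), Pgr (0.982), Armh4 (0.980), Actn1 (0.957) and Mkrn1 (0.949). They are the top of a ranking of that many genes over few arrays, and whether such values exceed chance was not tested. Gjb6 was at place 532 in that order, Aqp4 at 4749 and Gjb2 at 9846.

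Sign went with signal level among the 25 probe sets, as it did over the whole array. Of the 9 in the highest decile 7 were higher in High Exploration mice, where 65.6% of all probe sets in that decile were. Of the 10 in deciles 1 to 7 only 2 were higher, where 24.3% of all were. The exceptions in the highest decile were both bright probe sets of Slc4a4. Of the 6 in deciles 8 and 9, 2 were higher, where 37.2% of all were. These were Gjb6, in a decile with a median of −0.47, and Slc4a4 1434096_at (0.47), in a decile with a median of −0.17.

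**Figure D4:**
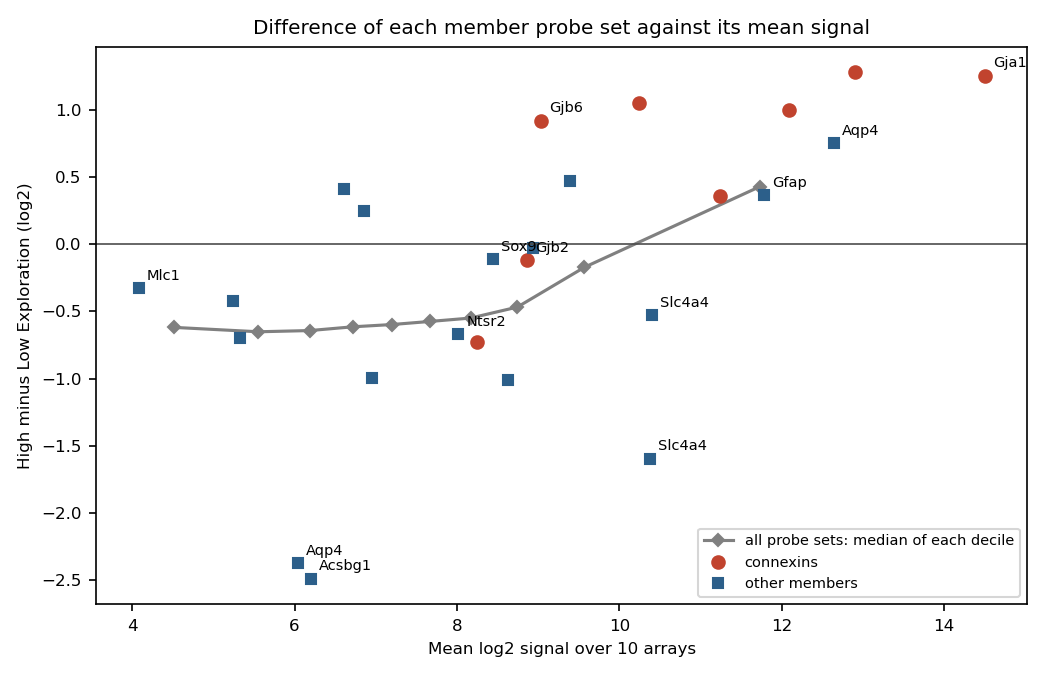
Difference between groups (High minus Low Exploration, log2, vertical axis) of each probe set against its mean log2 signal over 10 arrays (horizontal axis), with connexins as circles, other genes as squares and the median of each decile of all probe sets as diamonds. Decile medians run from −0.65 to 0.43, Gjb6 and 4 of the 5 bright Gja1 probe sets lie above the median of their decile, Gja1 1438973_x_at lies below it (0.36 against 0.43), and Acsbg1, Aqp4 1425382_a_at and Slc4a4 1426432_a_at lie far below it.

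Other genes of the same cell type did not pass the test either. Of 35 further astrocyte genes 34 were measured, 29 of them above the median signal of all probe sets. Of the 34, 18 were higher and 16 lower, with 0 called, 4 at an unadjusted limma p under 0.05 and a median of 0.080. Over all genes, by the brightest probe set of each, 19.1% met that p, 37.6% were higher and the median was −0.30. These values over all genes were not matched for signal. In 2 of the 34 the groups did not overlap and High Exploration was higher, against 1.93% of all genes, namely Gpc5 and Glul (0.55), the latter named after its values were seen. Gpc5, a glypican, had 3657 to 8924 in High and 1446 to 3029 in Low Exploration mice without overlap and a difference of 1.60 (limma adjusted p = 0.122). Fabp7, a fatty acid binding protein of radial glia and astrocytes, differed by 2.30 (limma adjusted p = 0.203) over ranges of 1419 to 25213 and 826 to 9143. Dio2, which activates thyroid hormone, differed by 1.01 (limma adjusted p = 0.220). Among the 16 lower genes the smallest limma p-values belonged to Atp1b2 (−0.92) and Mfge8 (−0.79). The summed signal of the 34 genes was 137775 to 224643 in High and 137544 to 173427 in Low Exploration mice.

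Other connexins and pannexins were mostly dim. Of 20 listed 14 were measured and only 3 lay above the median signal, with 4 higher, 10 lower and 0 called by limma. At an unadjusted limma p under 0.05 there were 6, where 19.1% of all genes met that p. Their median was −0.78, against −0.30 with 37.6% higher over all genes, which were not matched for signal. All probe sets in deciles 1 to 7 of mean signal had a median of −0.61, with 24.3% higher. Panx3 differed by −1.99, Gjb5 by −1.20 and Gjd4 by −1.88 (limma adjusted p = 0.137, 0.144 and 0.146). Gjb5, at 13.8 to 19.9 in High and 29.2 to 56.1 in Low Exploration mice, did not overlap between the groups, nor did Gjc1, at 18.4 to 48.6 and 55.2 to 125.7, which was named after its values were seen. That makes 2 of 14 lower without overlap, against 3.61% of all genes, and at such signals detection was not tested. Of 10 endfoot partners of Aqp4 and Mlc1, 9 were measured, with 4 higher, 5 lower, 0 called by limma, 0 at an unadjusted p under 0.05 and a median of −0.12. Their smallest p-values belonged to the chloride channel Clcn2 (−0.72), dystroglycan Dag1 (−0.36) and dystrobrevin Dtna (0.28).

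Markers of the other cells of the tissue were set beside these values, and their part in the results was not tested. None was called by limma in any list. All 7 neuronal markers lay above the median signal, with 5 higher, 2 lower and a median of 0.58. Their sum, in which the brightest genes weigh most, was 33673 to 72268 in High and 24991 to 32779 in Low Exploration mice. These ranges did not overlap, and how often other sums separate the groups was not tested. Within that list Nefl differed by 1.34 and Slc17a7 by −2.11, neither with overlap, and Syt1 by 1.04. Over all genes 1.93% were higher and 3.61% lower without overlap. Of the oligodendrocyte markers 5 of 6 were measured, with 4 higher, a median of 0.63 and Mobp, Mog and Mag at 0.66, 1.55 and 0.63 (sums 49978 to 95577 and 42624 to 104883). Mog was dim, at 13.4 to 204 in High and 7.02 to 87.3 in Low Exploration mice, and its detection was not tested. The lower one was Mbp at −0.15, which made up most of the sums. Of 3 precursor markers 2 were higher, with Olig1 at 1.18, Cspg4 at −1.30 and Pdgfra at 0.55 (sums 1916 to 3356 and 1129 to 1899). Microglia had 5 of 6 measured and 3 higher, with Cx3cr1 at −1.55, Csf1r at −0.71 and Aif1 at 1.06 (sums 9009 to 29808 and 21826 to 43219). Endothelium had 5 of 6 measured and 2 higher, with Itm2a at 1.10, Flt1 at −1.68 and Slco1a4 at 1.19 (sums 4992 to 9965 and 2417 to 7499). Choroid plexus had 1 of 5 higher, with Kl, Clic6 and Kcnj13 at −1.55, −1.19 and −0.71 (sums 20817 to 34755 and 16951 to 28563). The higher one was Ttr at 0.57, which made up most of these sums (17884 to 33651 in High and 12578 to 24239 in Low Exploration mice). Meninges, a tissue in which Gjb2 is known to be expressed, had 4 of 7 higher, with Ptgds at 1.55, Col1a1 at −0.96 and Dcn at 0.52 (sums 11642 to 63512 and 7008 to 17664). Red blood cells had 0 of 2 measured markers higher, Hba-a1 at −2.06 and Alas2 at −0.29 (sums 65.8 to 245 and 189 to 368). No marker was listed at 0.

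The sign of the median of the 25 probe sets was not stable. As deposited it turned positive in 5 of 10 fits that left out 1 array, at 0.048 and 0.043 without High Exploration replicates 2 and 3 in turn, and at 0.094, 0.083 and 0.11 without Low Exploration replicates 2, 3 and 4 in turn. Under median centring the median of the 25 probe sets was 0.42 and 17 were higher, at equal hybridisation controls it was 0.49 with 17 higher, and under quantile normalisation it was 0.24 with 15 higher. Relative to the median of all probe sets it was 0.36 as deposited, a value that constants per array leave as it is by construction, and 0.27 under quantile normalisation. With the poly-A control level as a covariate it was −0.36 relative to all, and 5 of the 6 Gja1 probe sets turned sign. That fit cannot separate group from control level, so no conclusion is drawn from these turns.

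**Figure D5:**
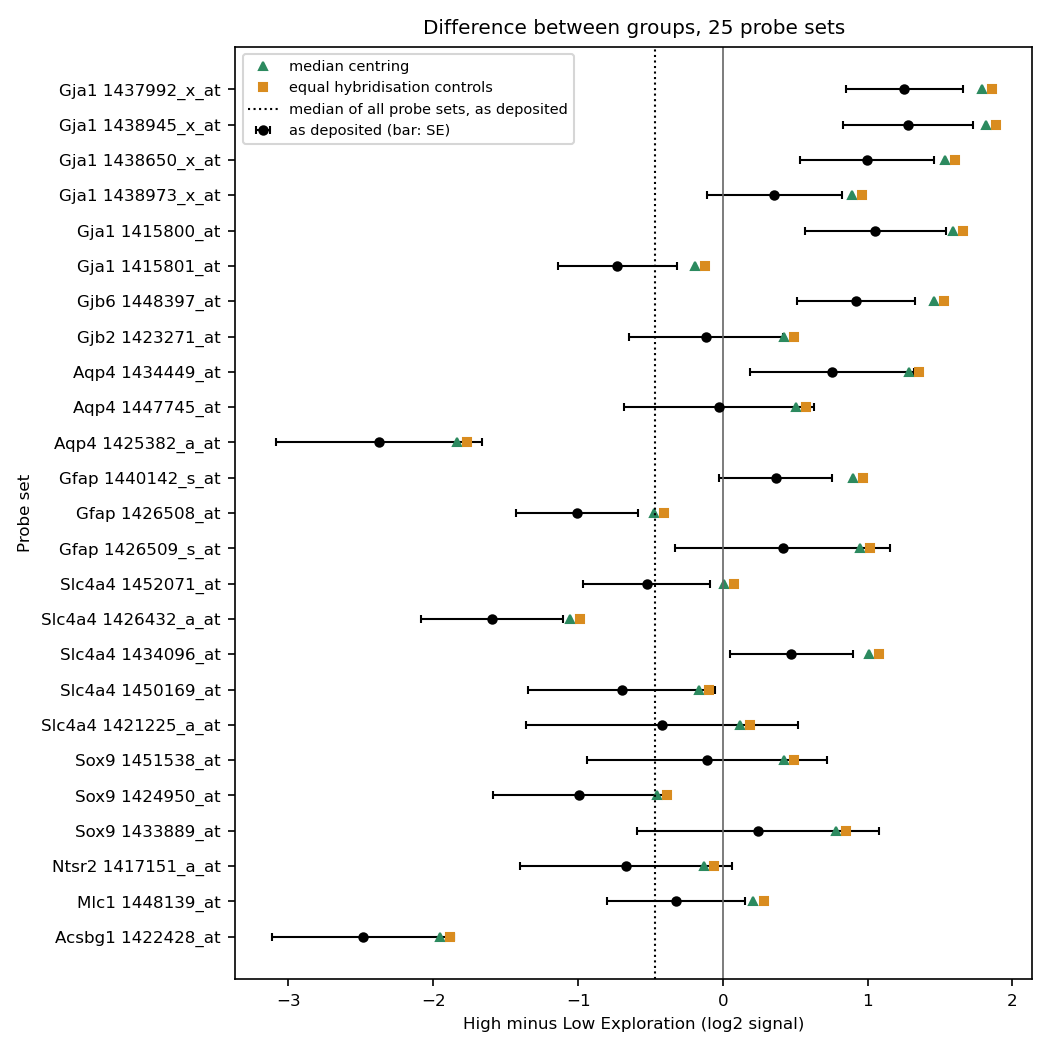
Difference between groups (High minus Low Exploration, log2 signal, horizontal axis) of the 25 probe sets, as deposited (black, bar is SE, n = 5 each), under median centring (triangles) and with hybridisation controls set equal (squares), with the median of all probe sets as deposited (−0.47) as a dotted line. The first 5 Gja1 probe sets and Gjb6 lie right of 0 under all 3, and Acsbg1, Aqp4 1425382_a_at and Slc4a4 1426432_a_at lie left of 0 under all 3.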

How the data were processed

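Whole hippocampus of 5 High Exploration and 5 Low Exploration female Balb c/J mice was profiled on Affymetrix Mouse 430 2.0 arrays of 1 colour. Total RNA is described as purified on Qiagen columns and labelled with biotin, while the study's methods name Qiagen RNA/DNA columns or Trizol for extraction. The labels name standard labelling, the study's methods double amplification, and which applied is not settled here. Groups and tissue follow the sample labels, since the series' design text is about handled mice and CA1. The intensity values deposited by the authors are MAS 5.0 signals, 1 per probe set and array, background corrected and scaled by a constant (2% trimmed mean 500 on every array). The distribution was not normalised by the authors. Detection calls were not used here.

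The table held 45101 probe sets, of which 64 controls were left out of the tests. Symbols came from the platform annotation, and probe sets with several symbols (932) were not named. Log2 signal was compared with limma 3.58.1 (lmFit, eBayes, R 4.3.3) over the other 45037 probe sets without a filter, adjusted by Benjamini-Hochberg and called under 0.05. Ratios within an array were tested by exact 2-sided permutation over all assignments of arrays to groups (scipy 1.17.1), and correlations by 100000 permutations. The limma procedure was tested on simulated data. The number of arrays limits the precision, and replicate numbers are only names.

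Named were all probe sets of the 10 genes, the 3 genes with the smallest limma p in each list (brightest probe set), and the 5 genes most like Gja1. A few further genes of the lists were named after their values were seen. The lists were other astrocyte genes, other connexins and pannexins, endfoot partners, and markers of neurons, oligodendrocytes, their precursors, microglia, endothelium, choroid plexus, meninges and red blood cells. Members and lists were chosen with earlier results of these data known. Alternatives were median centring, quantile normalisation, equal hybridisation controls, a filter above the median mean, a floor or a pseudocount at 23.0 (the 10th percentile of signals), array weights, hybridisation or poly-A control level as a covariate, and leaving out each array.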

Additional observations from a re-analysis of the deposited data

Results flagged for a closer look

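In 3 of 50 groups of 5 arrays, 1 array stood apart from its group by more than Dixon's critical value of 0.71. Chance alone flags about 1 in 20 groups. Dixon's ratio was taken on log2 signal, while the signals given below are linear, and the arrays flagged can depend on that scale. Ntsr2 in High Exploration mice gave 0.847, with replicate 4 at a signal of 23.5 and the nearest array at 283. Gfap 1426509_s_at in High Exploration mice gave 0.838, with replicate 1 at 40.8 and the nearest at 126, and the group difference was 0.78 without it against 0.41 with it. Aqp4 1434449_at in Low Exploration mice gave 0.819, with replicate 1 at 3051 and the nearest at 5164, and the difference was 0.58 without it against 0.75 with it.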

How the results depend on the processing

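None of the 25 probe sets was called by limma under any of 19 alternatives (smallest adjusted p 0.0675, with the filter), and none of the 15 ratios of probe sets within a gene or the 45 ratios of genes passed under any alternative run for them. The median of the 25 differences, −0.11 as deposited, lay between −0.47 without Low Exploration replicate 1 and 0.11 without Low Exploration replicate 4 when single arrays were left out, was 0.19 and −0.36 with the hybridisation and poly-A covariates, and with the filter was 0.36 over 17 probe sets. In 8 of 25 probe sets the sign never turned: Gja1 1437992_x_at, Gjb6, Aqp4 1434449_at and 1425382_a_at, Gfap 1426508_at, Slc4a4 1426432_a_at, Sox9 1424950_at and Acsbg1. The filter, the pseudocount and array weights turned no sign. The 32 calls over all probe sets, against which the members were read, became 0 without High Exploration replicate 1, 2 or 4, without Low Exploration replicate 2, 4 or 5 and with either covariate, 1 under each other scaling, and at most 58 (with the pseudocount). The sign turned under median centring for Slc4a4 1421225_a_at (0.12), Gjb2 1423271_at (0.42), Aqp4 1447745_at (0.51), Mlc1 1448139_at (0.21), Sox9 1451538_at (0.42) and Slc4a4 1452071_at (0.010). The sign turned under quantile normalisation for Slc4a4 1421225_a_at (0.20), Gjb2 1423271_at (0.24), Gfap 1440142_s_at (−0.042), Aqp4 1447745_at (0.37), Mlc1 1448139_at (0.31) and Sox9 1451538_at (0.30). The sign turned with hybridisation controls set equal for Slc4a4 1421225_a_at (0.19), Gjb2 1423271_at (0.49), Aqp4 1447745_at (0.58), Mlc1 1448139_at (0.28), Sox9 1451538_at (0.49) and Slc4a4 1452071_at (0.080). The sign turned with a floor at the 10th percentile for Mlc1 1448139_at (0.061). The sign turned with hybridisation controls as a covariate for Gja1 1415800_at (−0.28), Slc4a4 1421225_a_at (0.81), Slc4a4 1434096_at (−0.25), Aqp4 1447745_at (0.99), Mlc1 1448139_at (0.39), Slc4a4 1450169_at (0.43) and Sox9 1451538_at (0.35). The sign turned with the poly-A control level as a covariate for Gja1 1415800_at (−0.67), Gja1 1415801_at (0.049), Slc4a4 1421225_a_at (0.68), Gjb2 1423271_at (0.22), Gfap 1426509_s_at (−0.087), Slc4a4 1434096_at (−0.49), Gja1 1438650_x_at (−1.04), Gja1 1438945_x_at (−0.36), Gja1 1438973_x_at (−0.36), Mlc1 1448139_at (0.56) and Slc4a4 1450169_at (1.39). Leaving out single arrays turned the sign of 7 probe sets, with ranges of −0.47 to 0.38 for Aqp4 1447745_at, −0.45 to 0.20 for Gjb2 1423271_at, −0.84 to 0.44 for Sox9 1451538_at, −0.94 to 0.11 for Ntsr2 1417151_a_at, −1.11 to 0.25 for Slc4a4 1421225_a_at, −0.096 to 0.89 for Gfap 1426509_s_at and −0.30 to 0.68 for Sox9 1433889_at. The causes were not tested, and the fit with the poly-A covariate cannot separate group from control level, which did not overlap between the groups. No paired analysis was possible because the labels give animal numbers that the groups do not share. Signals near the floor of the array, in the 8 probe sets below the median, are the least precise.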

Other observations

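The Sox9 probe sets ran against each other within the Low Exploration group. Replicates 2 and 3 had the highest signals of that group in 1451538_at, 735 and 1683, and the lowest in 1433889_at, 27.0 and 23.6. The same replicates were the highest of all 10 arrays for Gjb2 and for Slc4a4 1426432_a_at. These values were noticed after the data were seen, and the arrays were not grouped by them.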
